A study of Mus musculus with 6 samples.

Results

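*Hmga2* and 6 genes of the pathway it belongs to were followed in the MII oocytes of aged mice matured with or without quercetin, a plant flavonoid with antioxidant activity. The 7 genes were *Hmga1* and *Hmga2*, *Lin28a* and *Lin28b*, and *Igf2bp1*, *Igf2bp2* and *Igf2bp3*, taken by symbol from 53465 genes in the count table. *Hmga2* was chosen by its counts, which were high in 2 of the 3 quercetin pools, so its own values are described and not tested. The question was whether the other 6 genes moved with it in those pools. None of them was above its control range in both of those pools. *Igf2bp2*, *Igf2bp3*, *Lin28a* and *Lin28b* were readily detected in every pool, with overlapping levels in the groups. *Hmga1* stayed low, and *Igf2bp1* was at or under 3 counts throughout.

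These genes form a well-known post-transcriptional circuit. The let-7 microRNAs repress target mRNAs that carry matches to their seed, and HMGA2, a chromatin protein with AT-hooks that bend AT-rich DNA, is one of the best studied of these targets. LIN28A and LIN28B are RNA-binding proteins that block the maturation of let-7 precursors, and their own mRNAs are let-7 targets. The IGF2BP proteins bind, transport and stabilise mRNAs, and *Igf2bp2* is a known transcriptional target of HMGA2 in other tissues. In fully grown mouse oocytes, microRNA activity is known to be weak, while LIN28A and IGF2BP mRNAs are stored as maternal transcripts.

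The study compared 3 control pools with 3 pools given 10 μM quercetin during in vitro maturation (IVM). All oocytes came from female Kunming (KM) mice aged 9-10 months, a naturally aged outbred model, and cumulus cells had been removed by pipetting. Each pool combined 15 MII oocytes from 3 mice, and the sources do not say whether mice were shared between groups, so p-values measure the spread between these pools. Controls had no quercetin, which was dissolved in DMSO, and the labels do not say whether control medium held DMSO. Libraries came from a Smart-seq kit, which makes full-length cDNA from the poly(A) RNA of small samples.

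Total counts ran from 7880467 to 9938743 per pool, and 24476 genes had at least 1 count. A gene at 3 counts, the floor used here, was at 0.328 to 0.375 CPM (counts relative to the TMM-scaled library size). Because the cDNA was amplified and reads carried no molecular identifiers, the floor accounts for counting error and nothing else. The oocyte label fitted the oocyte markers, whose summed level was 16650 to 20571 CPM in control pools and 18214 to 19794 CPM in quercetin pools. An exception among these 12 markers was *Figla*, named after its values were seen. It had 2, 10 and 3 counts in control and 6, 12 and 5 in quercetin pools, and was not tested. The MII stage was not tested by this list. Replicate 1 of both groups stood apart in the zona pellucida gene *Zp2*, with 1990 counts in control and 1045 in quercetin against 5601 to 12980 in the other 4 pools. *Hmga2* did not follow that split. Of 12 markers of granulosa and cumulus cells, *Foxl2*, *Amh* and *Ptx3* were at 0 in every pool, and the summed level of the list was 80.4 to 97.1 CPM in control and 106 to 109 CPM in quercetin pools. Most of that sum was *Cyp19a1*, the aromatase gene, at 58.2 to 68.6 CPM in control and 72.8 to 75.7 CPM in quercetin pools. *Kitl*, the KIT ligand gene, was at 7.66 to 8.64 CPM in control and 11.9 to 12.4 CPM in quercetin pools (edgeR unadjusted p = 0.021, adjusted p = 0.988). Both genes were higher in all 3 quercetin pools than in any control, also in quercetin replicate 1, in which *Hmga2* was low. Such a separation was found in 5.43% of all genes tested. Of this list 4 genes were tested, and *Has2* and *Nr5a2* overlapped between the groups (log2 fold changes 0.05 and 0.09). Among the untested genes, *Tnfaip6* and *Hsd17b1* were at 0 in every control pool. In quercetin pools *Tnfaip6* had 2, 8 and 4 counts, and *Hsd17b1* had 2, 2 and 2, under the floor. *Fshr*, *Inha* and *Inhba*, also untested, overlapped between the groups. The genes of this list were named after their values were seen. Theca and stroma markers summed to at most 3.81 CPM in control and 3.50 CPM in quercetin pools. Blood and immune markers summed to 3.48 to 4.07 CPM and 3.75 to 4.57 CPM. The part of other cells in the results was not tested beyond these values.

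The sequence that links these genes is the let-7 seed, bases 2 to 8 of the mature microRNA. RefSeq (GRCm38.p6) lists 9 mouse mature sequences of the family with this seed, and 4 of them are shown with the seed in capitals, because the 7 bases in capitals set which mRNAs the family can pair with.
mmu-let-7a-5p: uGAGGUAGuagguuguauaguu
mmu-let-7d-5p: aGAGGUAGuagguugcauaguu
mmu-let-7g-5p: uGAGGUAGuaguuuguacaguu
mmu-miR-98-5p: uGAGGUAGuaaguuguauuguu
The seed GAGGUAG was identical in all 9, while bases outside it differed. These libraries do not measure mature microRNAs. The 12 precursor genes of the family in the count table were at 0 in every pool, except for 1 count of *Mirlet7f-1* in control replicate 2.

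A perfect match to the seed reads CTACCTC in the sense strand of a transcript. The longest annotated 3′ UTR of every member (GENCODE release M21, GRCm38) held at least 1 such match. *Hmga2* held 4 in 3014 bases, *Lin28b* held 4 in 4445 bases and *Igf2bp1* held 4 in 6337 bases. *Lin28a* had 2 matches in 2775 bases, and *Hmga1*, *Igf2bp2* and *Igf2bp3* had 1 each. The matches of *Hmga2* and the first match of the 4 partners that were well detected are shown with flanking bases, the match in capitals.
Hmga2 match 1: cattcaatttCTACCTCagcatcag
Hmga2 match 2: ctcctcaataCTACCTCtgaatgct
Hmga2 match 3: ttgcaaggaaCTACCTCcacacttc
Hmga2 match 4: aaacacactaCTACCTCttaagtcc
Lin28a match 1: gcctgttgaaCTACCTCatttttgc
Lin28b match 1: ggcgggaagtCTACCTCatgcaagc
Igf2bp2 match 1: caaataaaagCTACCTCaggtgttt
Igf2bp3 match 1: ttttactcaaCTACCTCaggtattc
The first match of *Hmga2* lay 58 bases after the stop codon, at chr10:120364225-120364231 on the minus strand, and was followed by an A, a base that Argonaute favours at this place in a target. The other 3 lay 1295, 1733 and 2591 bases after the stop codon and were not followed by an A. The first match of *Lin28b* was closer still to its stop codon, 36 bases after it, at chr10:45381023-45381029 on the minus strand. That of *Igf2bp3* was at chr6:49086788-49086794 and that of *Igf2bp2* at chr16:22059474-22059480, both on the minus strand.

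Matches are common in long 3′ UTRs, so their number was set beside that of other genes. Of 20966 genes with an annotated 3′ UTR, 1891 held at least 1 match, 32 held 3 or more and 12 held 4 or more. *Hmga2*, *Lin28b* and *Igf2bp1* were among those 12. Among 2245 UTRs of 0.8 to 1.2 times the length of that of *Hmga2*, 15.55% held a match and 0.134% held 4 or more. On the opposite strand, the *Hmga2* UTR held 1 match (GAGGTAG), as did at least 1 position in 16.1% of UTRs of that length. For *Lin28b*, 24.2% of UTRs of like length held a match and 0.237% held as many. A match is a description of the sequence and not a shown binding site.

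**Figure D1:**
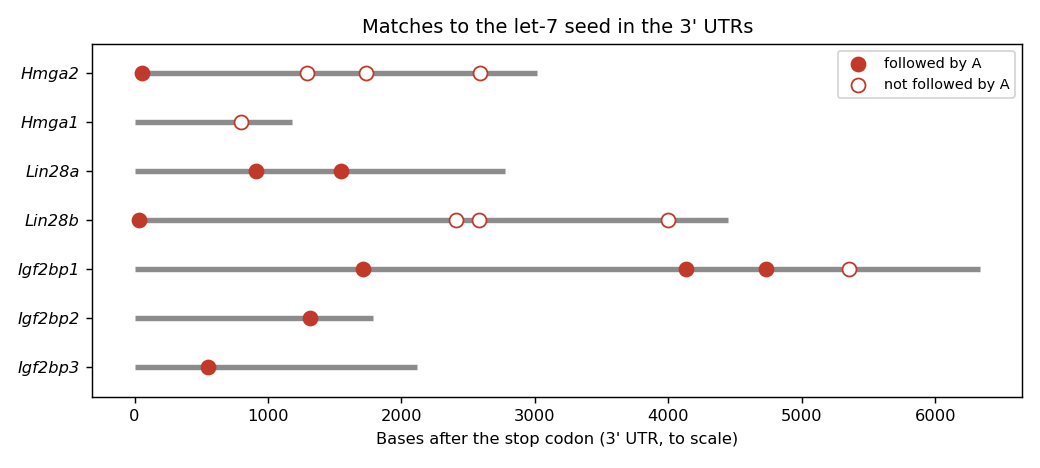
Positions of let-7 seed matches (CTACCTC) in the 3′ UTR of the 7 genes, in bases after the stop codon, with filled points where an A follows the match. *Hmga2*, *Lin28b* and *Igf2bp1* each held 4 matches, and in *Hmga2* and *Lin28b* the first lay 58 and 36 bases after the stop codon.

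*Hmga2* (ENSMUSG00000056758) occupies chr10:120361275-120476469, minus strand. It had 6, 4 and 5 counts in control replicates 1, 2 and 3. The quercetin replicates had 4, 313 and 196 counts. Quercetin replicate 1 thus lay at the control level, and only quercetin replicates 2 and 3 were high, so the groups overlapped.

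In CPM, the control pools were at 0.671, 0.479 and 0.561, just above the floor of 3 counts. The quercetin pools were at 0.4998, 34.2 and 23.0. The means were 0.570 ± 0.0964 in control and 19.2 ± 17.2 in quercetin (SD, n = 3), a ratio of means of 33.7. In units of the control mean, the quercetin SD was 30.1, about as large as the ratio. edgeR's filter on low counts asks for about 10 counts in 3 pools, which *Hmga2* reached in 2, so it was outside the 11842 genes tested. A pool mixes 15 oocytes, so few oocytes with much *Hmga2* RNA and many with little cannot be told apart.

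The counts give no position of the reads along a gene, so which part of *Hmga2* they cover is not known here. Of the exon length of *Hmga2*, 2.07% (140 bases) overlaps the antisense gene *1700006J14Rik*, whose counts were 271, 265 and 294 in control and 252, 345 and 226 in quercetin pools. That gene did not follow the pattern of *Hmga2*. Of the 31-base words of *Hmga2*, 5.38% (364 words) also occur elsewhere, spread over 2731 other genes. The pseudogene *Gm38158* shares the most, 126 words, and had 4 to 10 counts in control and 4 to 11 in quercetin pools. Reads that fit the other genes were not examined.

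Per kilobase of exon, *Hmga2* was at 0.0707 to 0.0991 CPM in the control pools and at 0.0738 CPM in quercetin replicate 1. It was at 5.06 and 3.40 CPM per kb in quercetin replicates 2 and 3. Among the genes with counts, this moved it from percentiles 26.6 to 31.9 in the 4 low pools to percentiles 80.4 and 75.9. In those 2 pools, its level per length lay among the values of *Lin28a* and *Lin28b*.

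The spread of *Hmga2* within the groups follows from how it was chosen and is given as a description. Its range over the quercetin pools was 5.56 on the log2 scale, against a median of 0.50 over 7012 genes that reached 10 CPM in some pool, a level *Hmga2* reached only in quercetin replicates 2 and 3. Its control range, 0.35, rests on 4 to 6 counts. A quercetin range at least as large as its own was found in 17 genes, *Hmga2* included, and a control range that large in 10 genes.

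A low quercetin replicate 1 was common among those genes, as counted after their values were seen. In 9 of the 17, quercetin replicate 1 was at least 10-fold under both of the other quercetin pools in CPM. They included *Prrg1*, with 1931, 1488 and 1846 counts in control and 9, 2613 and 1911 in quercetin pools. *Myef2* had 1552, 827 and 862 counts in control and 16, 1148 and 639 in quercetin pools, and *Ldlrad3* had 449, 428 and 555 in control and 8, 594 and 379 in quercetin pools. *Prrg1*, *Myef2* and *Ldlrad3* were thus high in the controls and dropped in quercetin replicate 1. *Hmga2* was the 1 gene of the 9 with all controls under 1 CPM. The others were *Gm26920*, *Gm49164*, *Gm28043*, *Cbx3-ps6* and *Cbx3-ps7*. Of these, *Gm49164* (5, 370 and 349 counts in control), *Cbx3-ps6* (1, 99 and 101) and *Cbx3-ps7* (1, 66 and 79) were also low in control replicate 1. *Cbx3-ps6* lies within the span of *Gm49164* on chromosome 14, on the other strand. Sequence shared among these genes was not measured, so the 9 genes need not be separate signals. *Gm26920* had 150, 201 and 2 counts in control, and *Gm28043* had 57, 80 and 157.

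**Figure D2:**
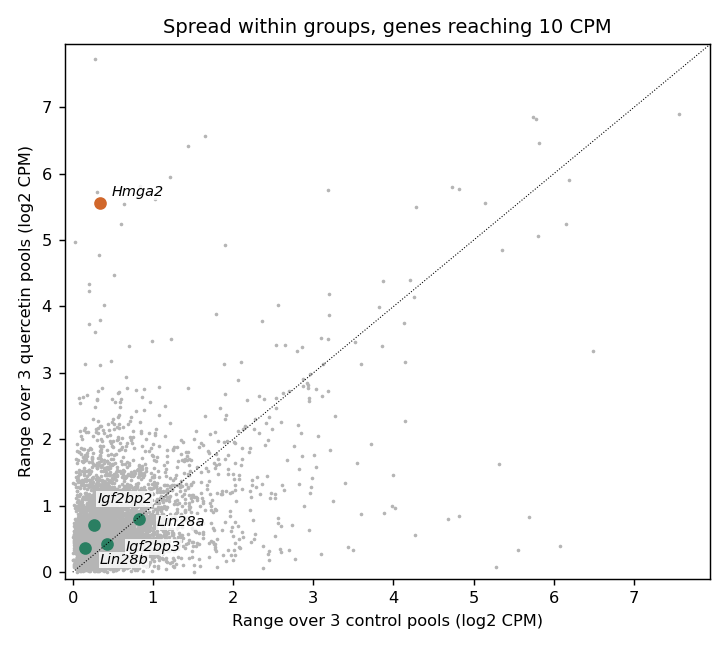
Range of log2 CPM over the 3 control pools (x axis) and over the 3 quercetin pools (y axis) for the 7012 genes that reached 10 CPM. *Hmga2* lies at 0.35 and 5.56, while *Lin28a*, *Lin28b*, *Igf2bp2* and *Igf2bp3* lie under 0.83 on both axes within the cloud of grey points, one for each gene.

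*Hmga1* (ENSMUSG00000046711, chromosome 17 from 27556497 to 27563674, plus strand) encodes the other AT-hook protein of the family. It had 16, 15 and 15 counts in control and 15, 12 and 12 in quercetin pools. Its level was 1.76 ± 0.0640 CPM in control and 1.53 ± 0.301 CPM in quercetin (SD, n = 3). The pools with high *Hmga2* had the lowest *Hmga1* counts, but the 6 pools spanned only 1.43-fold and the groups overlapped. The log2 fold change of quercetin over control was -0.20 (SE, the standard error, 0.37; 95% interval -1.03 to 0.63; edgeR quasi-likelihood adjusted p = 0.989, Benjamini-Hochberg over all genes tested).

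The counts of *Hmga1* are uncertain, because 62.1% of its 31-base words also occur elsewhere, all of them in *Hmga1b*. That near-copy on chromosome 11 had 48, 42 and 27 counts in control and 45, 29 and 34 in quercetin pools. Its counts overlapped between the groups as well. Within the pair, *Hmga2* made up 7.72% to 10.5% of the *Hmga1* and *Hmga2* level per kb in the 4 low pools. It made up 89.1% and 83.7% in quercetin replicates 2 and 3.

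*Lin28a* (ENSMUSG00000050966, chromosome 4 from 134003330 to 134018841, minus strand) encodes the LIN28 protein that recruits terminal uridylyltransferases to let-7 precursors. It had 207, 116 and 116 counts in control and 161, 105 and 109 in quercetin pools. Replicate 1 was the highest pool in each group, and quercetin replicates 2 and 3 were the lowest of the 6. Its level was 16.7 ± 5.62 CPM in control and 14.8 ± 4.65 CPM in quercetin (SD, n = 3), a log2 fold change of -0.18 (SE 0.31, 95% interval -0.88 to 0.53, edgeR adjusted p = 0.988). The groups overlapped, and without control replicate 1 the log2 fold change was 0.14. *Gm13061* on the other strand overlaps 5.86% of its exon length, with 5 to 15 counts per pool.

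*Lin28b* (ENSMUSG00000063804, chromosome 10 from 45376620 to 45486395, minus strand) encodes the paralogue, which blocks let-7 processing in the nucleus. It had 464, 414 and 492 counts in control and 440, 482 and 363 in quercetin pools. Quercetin replicate 2, with the most *Hmga2*, lay in the middle of the controls, and quercetin replicate 3 was the lowest pool. The log2 fold change was -0.06 (SE 0.17, 95% interval -0.45 to 0.33, edgeR adjusted p = 0.995). Without quercetin replicate 3 it was 0.045.

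The balance between the LIN28 paralogues differed less between the groups than between pools. Per kb of exon, *Lin28a* made up 41.3% ± 8.02 of their summed level in control and 39.6% ± 6.19 in quercetin (SD, n = 3), with p = 0.8 in an exact two-sided permutation test. With 3 pools against 3, this test cannot give a p under 0.1. Between single pools the share of *Lin28a* ran from 33.1% to 50.3%, and it was at 33.1% and 40.5% in quercetin replicates 2 and 3.

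*Igf2bp2* (ENSMUSG00000033581, chromosome 16 from 22059009 to 22163299, minus strand), the family member known as a target of HMGA2, was the most abundant of the 7. It had 1728, 1783 and 1588 counts in control and 1596, 1396 and 2139 in quercetin pools. The 2 quercetin pools with high *Hmga2* held the lowest and the highest value of all 6, at 152.7 and 250.9 CPM. Its level was 195 ± 17.8 CPM in control and 201 ± 49.1 CPM in quercetin (SD, n = 3). The log2 fold change was 0.04 (SE 0.19, 95% interval -0.39 to 0.48, edgeR adjusted p = 0.997). Its sign turned without quercetin replicate 3 (-0.15), without control replicate 3 (-0.011) and with library size as the only scaling (-0.028).

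*Igf2bp3* (ENSMUSG00000029814, chromosome 6 from 49085223 to 49214957, minus strand), another maternal RNA-binding protein gene, had 1371, 952 and 1013 counts in control pools. The quercetin pools had 1159, 1154 and 917 counts. All 3 lay within or just under the control range. The log2 fold change was -0.01 (SE 0.18, 95% interval -0.42 to 0.40, edgeR adjusted p = 0.999), and it was positive with DESeq2's size factors (0.0071) and without control replicate 1 (0.15) or quercetin replicate 3 (0.09). *Malsu1* on the other strand shares 18.7% of its exon length, with 316 to 443 counts per control pool and 319 to 407 per quercetin pool, and its reads could be counted for either gene if strand was not used.

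*Igf2bp1* (ENSMUSG00000013415, chromosome 11 from 95957163 to 96005940, minus strand), the member with 4 let-7 matches, had 0, 3 and 2 counts in control and 0, 0 and 2 in quercetin pools. No pool exceeded the floor, so no fold was computed. Its RNA was thus not detectable above the floor, which was at most 0.375 CPM, also in the pools where *Hmga2* was high. The summed *Igf2bp* level per kb was shared between *Igf2bp2*, with 62.9% ± 4.59 in control and 63.1% ± 7.81 in quercetin (SD, n = 3), and *Igf2bp3*, with nearly all of the rest.

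**Figure D3:**
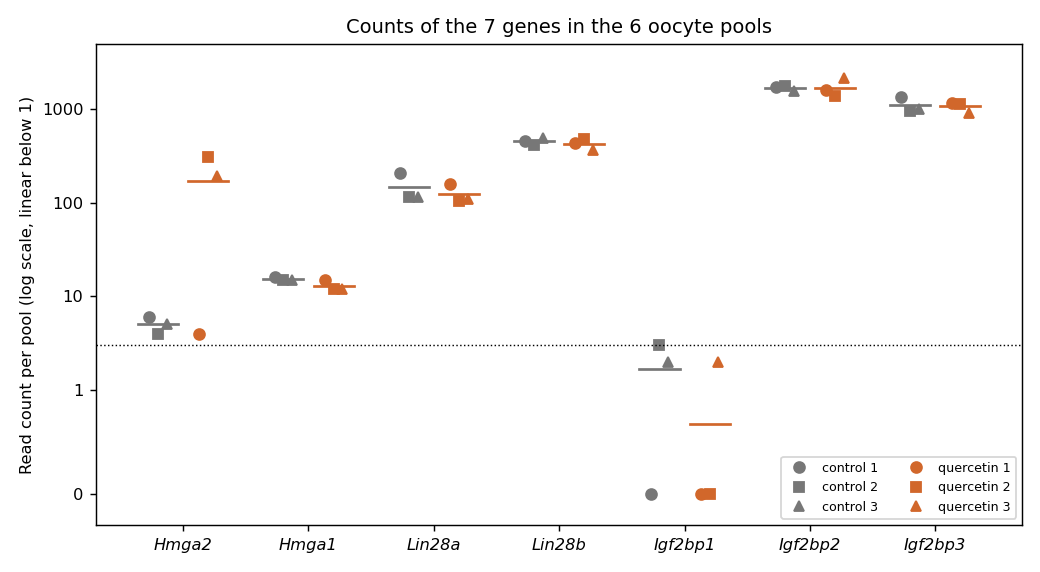
Read counts of the 7 genes in each pool (y axis, log scale, linear below 1), control in grey and quercetin in orange, with marker shapes for replicate numbers, bars for group means and a dotted line at 3 counts. *Hmga2* is at 313 and 196 counts in quercetin replicates 2 and 3 and at 4 to 6 elsewhere, while the groups overlap in every gene.

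Of the 6 partners, 5 passed the filter and were tested, and 0 were called at an adjusted p under 0.05 with a fold over 2. Among all 11842 genes tested, 0 were called higher (0.0%) and 0 lower (0.0%) by edgeR, with 477 (4.03%) at an unadjusted p under 0.05, 253 of them higher (2.14%) and 224 lower (1.89%), and a smallest adjusted p of 0.0730. DESeq2 called 12 of these genes. None of the 5 partners had groups that did not overlap, against 10.6% of all genes tested (5.43% higher and 5.15% lower). The partners' unadjusted p-values ran from 0.584 to 0.958. In two-sided exact permutation tests over the pools, p was 0.4 for *Hmga1*, 0.5 for *Lin28a*, 0.8 for *Lin28b*, 0.9 for *Igf2bp2* and 1 for *Igf2bp3*, where 0.1 is the smallest p that 3 pools against 3 allow. The 95% intervals of *Lin28a*, *Lin28b*, *Igf2bp2* and *Igf2bp3* lay within a 2-fold change either way, and that of *Hmga1* reached just past it. A missed threshold does not show that levels were equal.

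**Figure D4:**
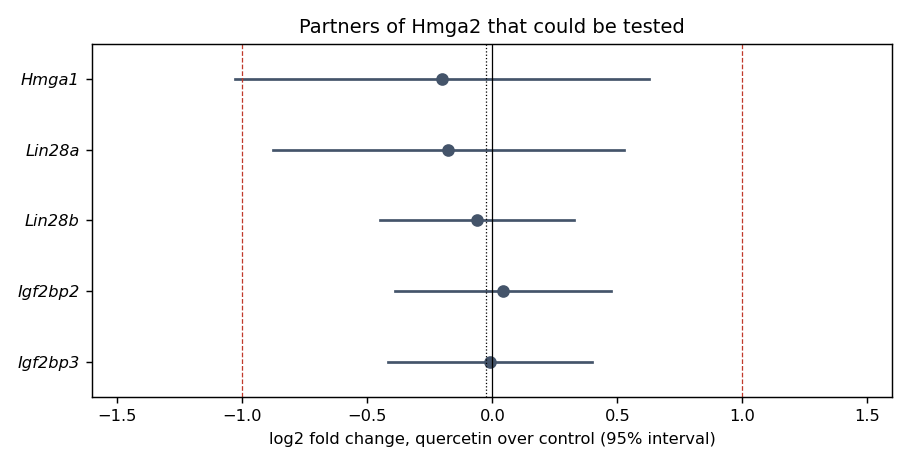
Log2 fold changes of quercetin over control (x axis) with 95% intervals for the 5 partners that were tested, with dashed lines at 2-fold and a dotted line at the median of all genes tested (-0.03). Every interval spans 0, and only that of *Hmga1*, from -1.03 to 0.63, crosses a dashed line.

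By level per kb, the order in control pools was *Igf2bp2* (26.3 ± 2.40 CPM per kb), *Igf2bp3* (15.6 ± 2.80), *Lin28b* (5.76 ± 0.311), *Lin28a* (4.18 ± 1.41), *Hmga1* (0.826 ± 0.0301), *Hmga2* (0.0842 ± 0.0142) and *Igf2bp1* (0.0201 ± 0.0187; all SD, n = 3). The order of the partners was the same in quercetin pools, at 27.2 ± 6.64 CPM per kb for *Igf2bp2* and 15.5 ± 2.28 for *Igf2bp3*. *Lin28b* and *Lin28a* were neighbours whose single pools overlapped, at 4.70 to 6.09 and 2.87 to 5.79 CPM per kb. The single pools of *Igf2bp2* and *Igf2bp3* did not overlap, since the lowest *Igf2bp2* pool was at 20.6 and the highest *Igf2bp3* pool at 18.8 CPM per kb. *Hmga2* thus ranked below *Hmga1* in 4 pools and above it in quercetin replicates 2 and 3.

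Across the 6 pools, the Pearson correlation of log2 CPM with *Hmga2* was negative for each partner. It was -0.97 for *Hmga1*, -0.61 for *Lin28a*, -0.53 for *Lin28b* and -0.35 for *Igf2bp3*. It was -0.12 for *Igf2bp1* and -0.07 for *Igf2bp2*. These values describe 6 pools from the same libraries, in which *Hmga2* has in effect 2 levels, and in *Hmga1* they rest on differences of 3 or 4 counts.

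The genes most like *Hmga2* were sought among 344 genes with at least 60 counts in total and an SD of log2 CPM of at least 1. Of these, 2 (0.581%) had a correlation over 0.9 across the 6 pools. The closest was *Gm10774*, a processed pseudogene on chromosome 2 from 126709354 to 126709557, with 1, 1 and 1 counts in control and 1, 100 and 68 in quercetin pools (r 0.999). It was thus high in the same 2 pools as *Hmga2* and near absent from the other 4. It shares no 31-base word with *Hmga2*.

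The reads of *Gm10774* cannot be assigned with certainty. All of its 31-base words (100%) occur in *Usp50*, a gene of the ubiquitin-specific peptidase family on the same strand, within whose span it lies. *Usp50* had 120, 423 and 228 counts in control and 112, 3 and 2 in quercetin pools. *Usp50* was therefore near 0 in just those 2 pools in which *Gm10774* and *Hmga2* were high. *Usp8*, which overlaps the same place on the other strand, had 190, 215 and 180 counts in control and 125, 107 and 354 in quercetin pools, with no such pattern. How reads that fit both genes were counted is not given in the sources used here, and its part in this pattern was not tested.

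The next gene was the zinc-finger gene *Zfp981*, with 19, 44 and 23 counts in control and 16, 231 and 92 in quercetin pools (r 0.912). The other 8 had correlations from 0.721 to 0.840 and were *Lrrc47*, *Gm14399*, *C1d*, *Ctdsp2*, *Zfp54*, *Rab23*, *Lrrc8d* and *2210409E12Rik*. *C1d*, a cofactor of the nuclear RNA exosome, had 18, 23 and 20 counts in control and 78, 150 and 132 in quercetin pools, so unlike *Hmga2* it was higher in all 3 quercetin pools than in any control. *Lrrc8d*, a subunit of volume-regulated anion channels, was high in a single pool, with 524 counts in quercetin replicate 2 against 2 to 10 elsewhere. *Rab23*, a small GTPase, was also high in control replicate 3, with 233 counts, and in quercetin replicates 2 and 3, with 327 and 250. Sequence that *Zfp981* and the other zinc-finger genes share with further genes was not measured. The partners of *Hmga2* could not be among these 10 genes, so their absence tells nothing. *Igf2bp1* had too few counts. The widest range of log2 CPM among the other partners was 0.997, in *Lin28a*, too narrow for an SD of 1.

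Without the minimum SD, a choice added after seeing the data, 50 of 11781 genes (0.424%) had a correlation over 0.9. Most of them varied little, and 6 had an SD of log2 CPM over 0.5. These were *Gm10774*, *Zfp981*, *Nbr1*, *Set*, *Gm39321* and *Gm5854*. *Nbr1*, a receptor of selective autophagy, had 287, 246 and 335 counts in control and 356, 1116 and 1024 in quercetin pools (r 0.972), so it too was high in quercetin replicates 2 and 3, with an SD of 0.934. *Set*, a histone chaperone gene, had 39, 27 and 25 counts in control and 20, 62 and 53 in quercetin pools. The partners, whose correlations with *Hmga2* were all negative, could not be among these genes, so this adds nothing about them.

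The 6 genes of the same 344 that ran most opposite to *Hmga2* had a correlation under -0.9 and were named after their values were seen. *Eng*, the TGF-β co-receptor endoglin, had 22, 21 and 22 counts in control and 18, 2 and 2 in quercetin pools (r -0.996). *Kdm5a*, a histone H3K4 demethylase, had 171, 127 and 171 counts in control and 145, 4 and 12 in quercetin pools. *2610001J05Rik* had 978, 888 and 1145 counts in control and 1184, 118 and 101 in quercetin pools. Each of these 3 genes was steady in the 4 pools with little *Hmga2* and fell away in the other 2 pools. The others were *Usp50*, *Il17rd* and the apoptotic initiator caspase gene *Casp9*, which had 48, 61 and 35 counts in control and 26, 12 and 6 in quercetin pools. Quercetin replicates 2 and 3 were the lowest pools in all 6.

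**Figure D5:**
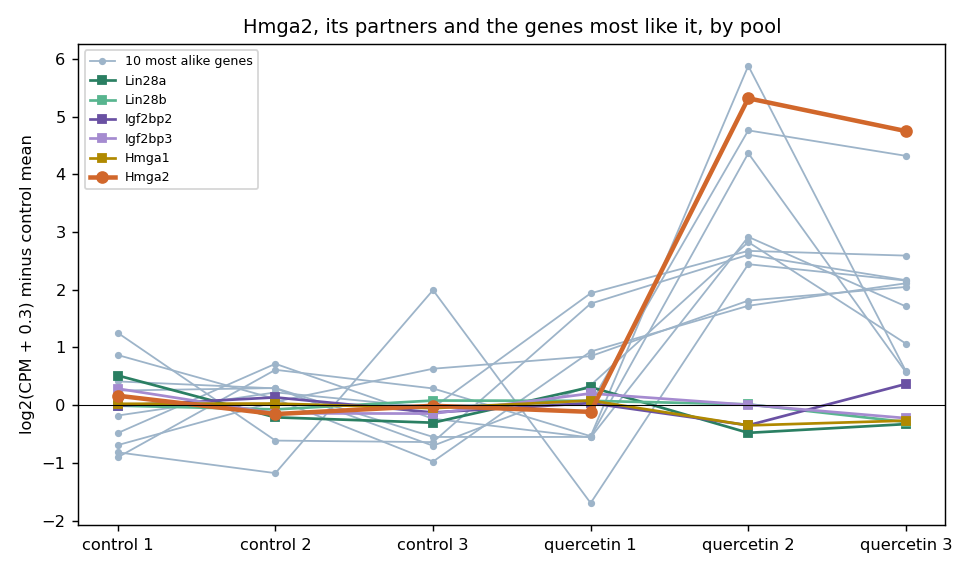
Level of *Hmga2* (thick orange line), its 5 tested partners and the 10 genes most like it (thin lines) in each pool, as log2(CPM + 0.3) minus the mean of the 3 control pools. *Hmga2* leaves the zero line only in quercetin replicates 2 and 3, while the partners stay within 1 log2 unit of it in all pools.

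The genes on either side of *Hmga2* on chromosome 10 did not share its pattern. The nearest protein-coding gene with counts was *Llph*, 128693 bases away, with 1675, 1419 and 1844 counts in control and 1618, 2348 and 1654 in quercetin pools. On the other side *Msrb3*, 304627 bases away, had 1784, 1079 and 879 counts in control and 1745, 1951 and 1517 in quercetin pools. Its log2 fold change was 0.51 (SE 0.24, edgeR unadjusted p = 0.065 and adjusted p = 0.988), and quercetin replicate 1 was as high as the others. *Tmbim4* overlapped between groups (log2 fold change -0.12, SE 0.31). *Irak3* was at 0 in every pool, *Lemd3* had at most 1 count and *Wif1* had 6 to 17 counts.

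A set of 5 gene lists around the circuit was then read against the comparison of all genes tested, whose median log2 fold change was -0.03. Of all genes tested, 53.6% lay below 0. The let-7 processing list held the Microprocessor, DICER1 with its partners, the uridylyltransferases and the regulators of precursor turnover. Of its 14 genes, 13 were tested, 0 were called, and 3 lay above and 10 below 0, with a median of -0.20. *Khsrp*, which promotes let-7 maturation, had 367, 313 and 441 counts in control and 287, 320 and 213 in quercetin pools. In CPM its groups did not overlap, as in 5.15% of all genes tested in that direction, with a log2 fold change of -0.42 (SE 0.21, adjusted p = 0.988). *Ddx5*, a helicase of the Microprocessor, was the most abundant of the list, with 3280, 2484 and 3047 counts in control and 3112, 4047 and 2239 in quercetin pools. *Dicer1*, chosen after its values were seen, had 2670, 2936 and 3022 counts in control and 1756, 1911 and 2995 in quercetin pools, and its groups overlapped.

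Of 18 other known let-7 targets, 12 were tested, 0 were called, and 6 lay above and 6 below 0, with a median of -0.03. *Tgfbr1*, the type I TGF-β receptor, had 100, 111 and 148 counts in control and 188, 183 and 159 in quercetin pools. In CPM its groups did not overlap, as in 5.43% of all genes tested in that direction. Its log2 fold change was 0.60 (SE 0.23, edgeR unadjusted p = 0.027, adjusted p = 0.988). *Arid3b*, a DNA-binding protein gene, went the other way, with 137, 101 and 144 counts in control and 96, 94 and 46 in quercetin pools. Its groups did not overlap in CPM either, as in 5.15% of all genes tested in that direction (log2 fold change -0.66, SE 0.31, edgeR adjusted p = 0.988). *E2f5*, a cell cycle transcription factor, was the most abundant, at 921.8 CPM over all pools, with a log2 fold change of -0.09 (SE 0.15). *Myc* and *Mycn* were at 0 in every pool.

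Splitting all genes by the number of let-7 matches in the 3′ UTR, a step added after seeing the data, gave like values in each class. The median log2 fold change was -0.02 in 8768 tested genes with no match, -0.03 in 848 with 1, -0.05 in 120 with 2 and -0.03 in 15 with 3 or more. The share at an unadjusted p under 0.05 was 3.97%, 4.01%, 5.83% and 0% in these classes, beside 4.03% of all genes tested.

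Of the other high mobility group genes, 9 of 11 were tested, 0 were called, and 5 lay above and 4 below 0, with a median of 0.06. *Ssrp1*, the HMG-box subunit of the FACT histone chaperone, had 245, 216 and 227 counts in control and 426, 474 and 334 in quercetin pools. All 3 quercetin pools lay above all controls, including quercetin replicate 1, where *Hmga2* was low (log2 fold change 0.87, SE 0.19, edgeR unadjusted p = 0.0013, adjusted p = 0.792). *Hmgb3* was the most abundant of the list, with 902, 540 and 443 counts in control and 969, 806 and 1217 in quercetin pools. Its log2 fold change was 0.71 (SE 0.28, unadjusted p = 0.031, adjusted p = 0.988), and its groups overlapped. *Hmgn5*, a nucleosome-binding protein gene, had 505, 595 and 557 counts in control and 630, 946 and 625 in quercetin pools. Its log2 fold change was 0.43 (SE 0.19, edgeR unadjusted p = 0.047, adjusted p = 0.988). These 3 genes were higher at an unadjusted p under 0.05, as were 2.14% of all genes tested. In *Ssrp1* and *Hmgn5* the groups did not overlap, as in 5.43% of all genes tested in that direction.

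The insulin-like growth factor axis, whose mRNAs gave the IGF2BP proteins their name, was weakly present. Of 15 genes, 7 were tested, 0 were called, and 6 lay above and 1 below 0, with a median of 0.05. *Igf2* had 1 count in 1 control pool and none elsewhere, and *H19* was at 0 in every pool. *Plag1*, a zinc-finger activator of *Igf2* and an HMGA2 target in other tissues, was the most abundant, with 530, 329 and 302 counts in control and 350, 425 and 404 in quercetin pools. Its log2 fold change was 0.05 (SE 0.23, adjusted p = 0.996), and the groups overlapped.

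Proteins found with IGF2BPs in mRNA granules formed the last list, in which all 7 genes were tested, 0 were called, and 3 lay above and 4 below 0, with a median of -0.05. *Matr3*, a nuclear matrix RNA-binding protein gene, was the most abundant, with 1992, 1399 and 1392 counts in control and 1119, 1465 and 1930 in quercetin pools. *Ybx1*, a cold-shock domain protein gene that packages stored mRNA, had 387, 305 and 274 counts in control and 286, 250 and 331 in quercetin pools. It was named after its values were seen. Neither gene followed *Hmga2*, since in both the 2 pools with high *Hmga2* included one within the control range.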

How the data were processed

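RNA sequencing covered 3 control and 3 quercetin pools, grouped by the labels. The deposited counts are reads per Ensembl gene and pool, which the authors neither normalised nor pooled. The paper's methods name Hisat2 and GRCm38.91, while the submitters' processing notes name CASAVA 1.8, TopHat2 2.0.6 and mm10 (GRCm38). The counting program, its strand setting and its treatment of reads matching several genes are not given in the sources used here. Symbols matched 53274 of 53465 identifiers.

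Counts were scaled by TMM, filtered by filterByExpr (minimum count 10) and compared with the quasi-likelihood test of edgeR 4.0.16 (R 4.3.3), adjusting p over 11842 genes after Benjamini and Hochberg. A call needed a fold change over 2 at an adjusted p under 0.05. Standard errors come from the size of the log2 fold change and its F statistic. CPM use TMM-scaled sizes, and log2 CPM a prior count of 2. Single genes were also compared by exact permutation (scipy 1.17.1, Python 3.11.15). Coordinates, exon lengths, overlaps, 31-base words and 3′ UTRs came from GENCODE M21 on GRCm38, and microRNAs from RefSeq.

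Named were the members and, from each of 5 pathway lists, genes with an unadjusted p under 0.05 or groups that did not overlap (at most 4) and the most abundant gene. Also named were the 10 genes most like *Hmga2* and its 3 nearest protein-coding neighbours on each side. Exceptions are marked. The members, the pathway lists and the 5 marker lists were chosen with earlier results of these data known. Alternatives were DESeq2 1.42.0, other scalings and filters, a replicate block and leaving out each pool. The let-7 match classes, the within-group ranges, the opposite patterns and likeness without a minimum SD were added after seeing the data.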

Additional observations from a re-analysis of the deposited data

How the results depend on the processing

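At 3 pools a group and about 10 counts at the least, small changes in *Hmga1* and any in *Igf2bp1* were beyond the depth of these libraries. The count of genes called among all tested rose from 0 to 12 with DESeq2 and to 3 with every gene of at least 1 count, and ran from 0 to 7 when single pools were left out (2 without control replicate 1, 2 without control replicate 2, 7 without quercetin replicate 1, 1 without quercetin replicate 2 and 6 without quercetin replicate 3). The cause was not tested. It was 0 with the other scalings, the stricter filter and without control replicate 3. None of the partners or pathway list genes was called under any of these alternatives. Signs turned for *Lin28a* without control replicate 1 (0.14), for *Lin28b* without quercetin replicate 3 (0.045), for *Igf2bp2* with library size only (-0.028), without control replicate 3 (-0.011) and without quercetin replicate 3 (-0.15), and for *Igf2bp3* with DESeq2 (0.0070), its size factors (0.0071), without control replicate 1 (0.15) and without quercetin replicate 3 (0.09), all on the log2 scale. Leaving out single pools gave log2 fold changes of -0.37 to -0.10 for *Hmga1*, -0.46 to 0.14 for *Lin28a*, -0.13 to 0.045 for *Lin28b*, -0.15 to 0.21 for *Igf2bp2* and -0.12 to 0.15 for *Igf2bp3*, and a ratio of mean *Hmga2* CPM of 20.6 to 50.2. Library size alone moved the median of all genes by -0.085. List medians moved most in the high mobility group list, to 0.30 without control replicate 1 and 0.17 without quercetin replicate 2, and in the insulin-like growth factor list, to 0.30 without control replicate 1. The IGF2BP partner list moved to 0.14 without control replicate 2. Of the 10 genes most like *Hmga2*, 9 remained with a prior count of 0.5 and 2 with Spearman's correlation.

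No source says that pools with the same replicate number shared mice or a day, and not every pair correlated over 0.1. The correlations of their deviations from the group means were 0.296, 0.101 and -0.03 for numbers 1, 2 and 3, and control replicates 2 and 3 each correlated best with a pool of another number. With the replicate number as a block, 0 genes were called and 492 had an unadjusted p under 0.05, against 477 without it, and the block changed no call among the partners and lists.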

Other observations

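Other genes with many let-7 matches were expressed in these oocytes without the pattern of *Hmga2*. *Nr6a1*, an orphan nuclear receptor gene of germ cells, held the most matches of any 3′ UTR, 8, and had 633, 1267 and 518 counts in control and 1141, 1426 and 416 in quercetin pools. It was lowest in replicate 3 of each group, and its log2 fold change was 0.31 (SE 0.46, edgeR adjusted p = 0.988). *Trim71*, a ubiquitin ligase gene and classic let-7 target, had 84, 91 and 61 counts in control and 57, 77 and 59 in quercetin pools. *Hic2* had 128, 143 and 135 counts in control and 189, 154 and 143 in quercetin pools. Genes named in this paragraph were chosen after their values were seen.

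Of 6 markers of the 2-cell embryo, the summed level was 43.1 to 65.9 CPM in control and 40.2 to 61.7 CPM in quercetin pools, so the groups overlapped. Most of that sum was *Tcstv3*, at 41.8 to 64.3 CPM in control and 37.8 to 59.9 CPM in quercetin pools. It was the 1 gene of the list that passed the filter, and the others had at most 13 counts in any pool. Of 11 oocyte markers tested, 5 lay above and 6 below 0. *Gdf9*, an oocyte growth factor, had 52260, 46443 and 51845 counts in control and 59906, 54768 and 56610 in quercetin pools. It was the 1 tested marker whose groups did not overlap, as in 5.43% of all genes tested in that direction (log2 fold change 0.22, SE 0.14). Quercetin replicate 1 was among its high pools. *Ooep* went the other way (log2 fold change -0.92, SE 0.38, edgeR unadjusted p = 0.041, adjusted p = 0.988), and its groups overlapped. Both genes were named after their values were seen.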
